A study of Mus musculus with 8 samples.

Results

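The 10 genes described here are parts and readouts of the YAP-TEAD branch of the Hippo pathway in a mouse collecting duct cell line kept in hypertonic medium. They are the coactivators Yap1 and Wwtr1 (the gene for TAZ), the DNA-binding partner Tead1, and genes known as targets of these factors, Ankrd1, Ccn1 (Cyr61), Ccn2 (Ctgf), Amotl2, Lats2, Ajuba and Axl. They were chosen by symbol, all 10 were found among the 15288 genes of the count table, and all 10 were among the 14024 genes with enough counts to be tested. Cells of the inner medullary collecting duct line IMCD, of kidney origin, were grown with 10% serum to about 90% confluence and then kept for 12 h in DMEM without serum. The control group (n = 4 libraries, numbered 1 to 4) received no added NaCl and the NaCl group (n = 4 libraries, numbered 5 to 8) received 100 mmol NaCl, the amount as the labels write it, without a volume. No genotype, transgene or second agent is given for either group. The labels do not say whether the libraries of a group came from separate cultures, so the p-values measure the spread between these libraries, which may be technical.

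In the Hippo pathway the kinases Stk3 and Stk4 (MST) activate Lats1 and Lats2, which phosphorylate YAP and TAZ and keep them out of the nucleus. Unphosphorylated YAP and TAZ enter the nucleus, bind TEAD proteins and raise the transcription of genes for secreted matrix proteins, cytoskeletal adaptors and inhibitors of the pathway itself, Lats2 and Amotl2 among them. Cell density, serum and mechanical or osmotic stress are known inputs. YAP and TAZ are regulated largely as proteins, which RNA counts do not measure, and in a bulk sample fewer cells of a type and less RNA per cell cannot be told apart.

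The TEAD recognition sequence GGAATG was looked for, on both strands, in the 250 bases before the RefSeq start sites of the members, because it is the DNA element through which YAP and TAZ reach their targets. Promoter sequences from RefSeq (GRCm38.p6) were matched by symbol for 8 of the 10 genes, with 10 start sites, and not for Ccn2 and Tead1. The element was present in 7 of these 8 genes and before 8 of the 10 start sites (80%), against 4153 of 32851 promoters of the same length in the mouse genome (12.6%). Lats2 held none in this window, at either of its start sites. The 9 distinct matches are shown with their flanks as 30 bases each, 5′ to 3′ on the strand that reads GGAATG, which is in capitals.
Yap1, chr9:8004720-8004749: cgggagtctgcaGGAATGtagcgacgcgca
Wwtr1, chr3:57576029-57576058: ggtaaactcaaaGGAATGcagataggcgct
Ankrd1, chr19:36120037-36120066: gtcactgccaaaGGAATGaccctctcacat
Ankrd1, chr19:36119950-36119979: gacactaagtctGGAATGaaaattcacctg
Ccn1, chr3:145650071-145650100: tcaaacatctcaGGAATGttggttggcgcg
Amotl2, chr9:102717727-102717756: gctgctatgccaGGAATGtgagagtttcag
Ajuba, chr14:54577830-54577859: gaggggcactgtGGAATGtatccatcaacg
Ajuba, chr14:54577808-54577837: ttgtttacagttGGAATGcgcggaggggca
Axl, chr7:25788949-25788978: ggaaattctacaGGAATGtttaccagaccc
The matches lay between 65 bases (Amotl2) and 233 bases (Axl) before the start site, an A preceded the element in 6 of 9, and a T followed it in 5 of 9. In GENCODE M21 6 of the 9 matches lay upstream of the gene model, and the pair in Ankrd1 and the one in Amotl2 lay in an annotated exon. The members were chosen as known targets and TEAD partners, so the share is a description of the list, and a match is not evidence that TEAD was bound in these cells. Neither the AP-1 element TGANTCA (6.75% of all promoters) nor the CArG box of the serum response factor (1.47%), searched on both strands, was found in the same windows of the 8 genes, so no match overlapped a GGAATG.

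The promoter of Ccn1, whose RNA was lower with NaCl, is given in full (chr3:145649986-145650235, minus strand, with the element as read from the other strand, CATTCC, in capitals), and that of Ajuba, whose RNA was higher, is set beside it (chr14:54577662-54577911, minus strand), because both carry the element in the same orientation.
Ccn1: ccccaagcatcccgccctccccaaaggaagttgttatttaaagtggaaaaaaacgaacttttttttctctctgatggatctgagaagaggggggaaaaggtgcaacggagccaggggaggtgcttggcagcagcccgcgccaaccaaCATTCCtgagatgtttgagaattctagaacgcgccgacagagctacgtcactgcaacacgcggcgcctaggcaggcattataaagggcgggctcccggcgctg
Ajuba: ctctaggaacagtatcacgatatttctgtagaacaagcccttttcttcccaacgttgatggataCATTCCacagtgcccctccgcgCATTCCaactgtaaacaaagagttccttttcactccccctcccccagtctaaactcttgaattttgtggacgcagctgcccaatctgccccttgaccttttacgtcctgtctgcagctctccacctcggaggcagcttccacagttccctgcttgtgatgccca
The GC content of these windows was 54.8% for Ccn1 and 50.8% for Ajuba, against a median of 52.4% over all promoters.

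Library totals ran from 35.29 to 47.57 M counts. The tonicity genes Akr1b3 and Slc5a3 were 6.54-fold and 2.26-fold higher in the NaCl group. Of the 14 collecting duct markers listed, 13 were measured, and Cdh16, Krt7, Krt18 and Pax8 were above 100 CPM (counts scaled to the library total, with TMM factors) in both group means. Cdh1 had 2 to 30 counts and Aqp2 0 to 15 counts per library, so these defining markers of the duct were at or near 0. The fibroblast markers had a sum of 3128 to 3635 CPM in control and 2820 to 3254 CPM in NaCl libraries over the 6 of 8 genes measured. That sum was mostly collagen RNA (Col1a1 2492, Col1a2 434 and Col3a1 381 CPM in control), while Pdgfrb, Dcn and Pdgfra were at 37.5, 15.8 and 2.38 CPM. The sum was at most 1.21 CPM for 3 endothelial genes and 24.7 CPM for 2 leukocyte genes. It was between 152 and 203 CPM for 2 proximal tubule genes, nearly all of it Lrp2 (185 and 162 CPM in control and NaCl means). Slc5a2 was at 0.13 and 0.14 CPM, and the other proximal tubule genes listed (Slc34a1, Slc22a6 and Slc22a8) were not in the count table. Single markers of other cell types differed between the groups. The leukocyte gene Ptprc (4.06 and 13.5 CPM in control and NaCl means; adjusted p = 5.91e-10) and the fibroblast gene Pdgfrb (37.5 and 61.1 CPM; 1.08e-06) were higher with NaCl, and Col1a1 (2492 and 2148 CPM; 0.00808) and Pdgfra (log2FC -0.67; 0.0332) were lower. The other leukocyte gene measured, Csf1r, was at 9.22 and 8.86 CPM (adjusted p = 0.874). Their part in the results on the 10 genes was not tested.

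The 3 factor genes were higher with NaCl and the 7 target genes went different ways. The genes for the transcription factor and coactivators, Tead1, Yap1 and Wwtr1, rose with NaCl by 24.2%, 8.49% and 6.98%, while the secreted matricellular targets Ccn2 and Ccn1 and the nuclear ankyrin-repeat target Ankrd1 fell, with changes of -40.2%, -26.6% and -26.6%. The targets Ajuba and Lats2 rose by 16.4% and 7.63%, and Amotl2 and Axl were not called. Of the 10 genes 8 were called in edgeR's quasi-likelihood test at a Benjamini-Hochberg adjusted p-value under 0.05, 5 higher and 3 lower, where 34.1% of all tested genes were called (16.9% higher and 17.2% lower). The groups did not overlap in the same 8 genes, which held for 33.4% of all genes (16.5% with NaCl higher and 16.9% with NaCl lower). The number called higher was 3 in place of 5 without control library 1 or 2 or NaCl library 5, 6 or 7. Wwtr1 also lost its call without control library 4, and Lats2 without NaCl library 8. The 3 lower genes were called in every refit without a single library. The median log2 fold change (log2FC) of the 10 was 0.07, and that of all tested genes was 0.0029. With a linear drift over the libraries in the fit 5 of the 10 were called, 1 higher and 4 lower, where 24.1% of all genes were called.

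**Figure D1:**
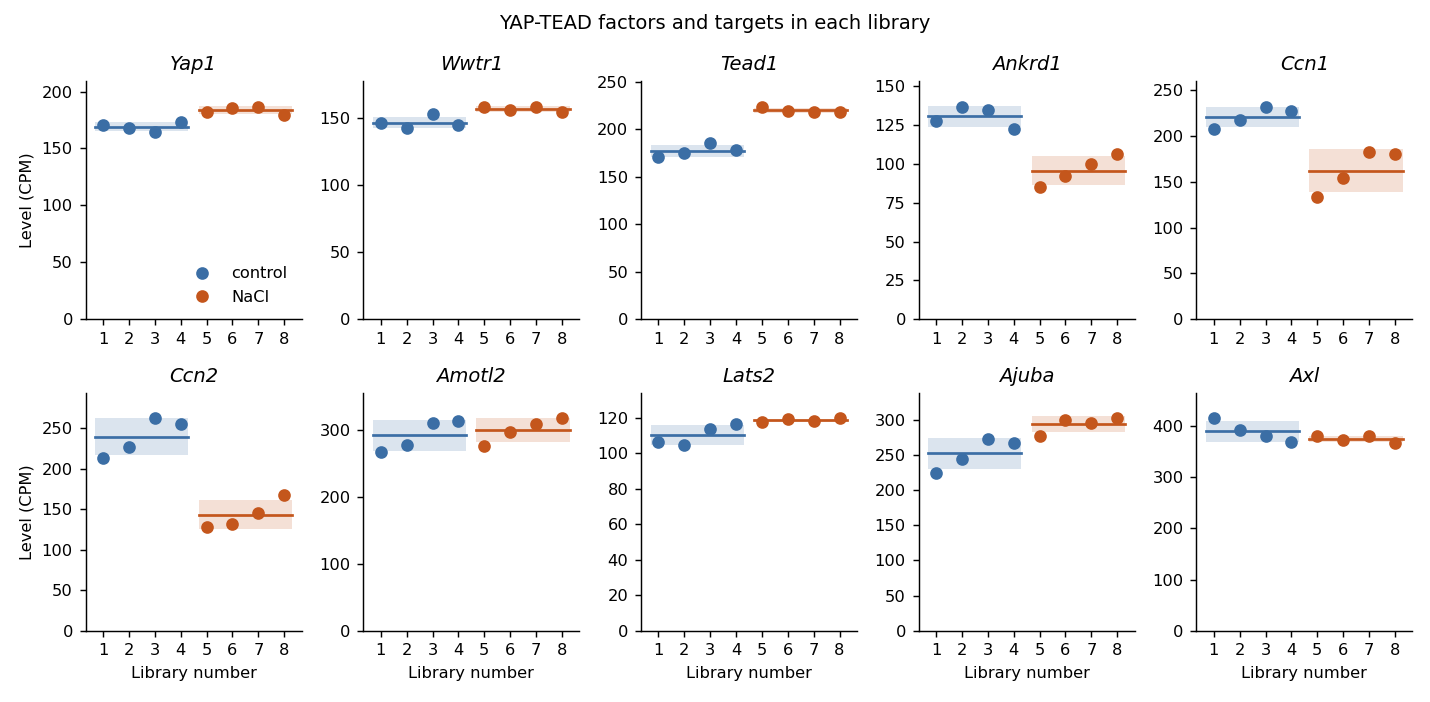
Level of each of the 10 genes (y axis, CPM, starting at 0) in each library (x axis, library number; control 1 to 4 in blue, NaCl 5 to 8 in orange), with the group mean as a line and 1 SD as a band. Ankrd1, Ccn1 and Ccn2 lie lower in every NaCl library than in any control, while Amotl2 and Axl overlap between the groups.

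Tead1 (ENSMUSG00000055320, chr7:112679318-112906807, plus strand) encodes a DNA-binding partner of YAP and TAZ. Its level was 171, 175, 185 and 178 CPM in controls 1 to 4 and 224.0, 219.6, 218.6 and 218.5 CPM in NaCl libraries 5 to 8. The NaCl libraries lay close together and all lay above the highest control. Group means were 177 ± 6.22 CPM in control and 220.2 ± 2.58 CPM in NaCl libraries (SD, n = 4), and the log2FC was 0.31 (SE 0.034; edgeR adjusted p = 2.12e-06). Tead1 kept this call without any 1 of the 8 libraries (0.29 to 0.33) and in every other fit that was tried.

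Yap1 (ENSMUSG00000053110, chr9:7931999-8004596, minus strand) and Wwtr1 (ENSMUSG00000027803, chr3:57455649-57575910, minus strand) encode the paired coactivators. Yap1 was at 170.3, 168, 164 and 173 CPM in the controls and at 182, 186, 187 and 179 CPM in the NaCl libraries. The groups were apart, by a margin of a few CPM, and the means of 169 ± 3.83 and 183 ± 3.46 CPM gave a log2FC of 0.12 (SE 0.032; adjusted p = 0.0098). Wwtr1 was at 146, 143, 153 and 145 CPM in the controls and at 159, 156, 158 and 154 CPM in the NaCl libraries, again without overlap. Its log2FC was 0.097 (SE 0.033; adjusted p = 0.0316). Without single libraries the log2FC of Wwtr1 ran from 0.082 to 0.115, and its call was lost without control library 1 (adjusted p = 0.0565), control library 2 (0.105), control library 4 (0.0754), NaCl library 5 (0.0672), NaCl library 6 (0.062) or NaCl library 7 (0.0801). When the fit held a straight drift across the 8 libraries, neither Yap1 (adjusted p = 0.169) nor Wwtr1 (0.227) was called.

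Ccn2 (ENSMUSG00000019997, chr10:24595442-24598683, plus strand) encodes connective tissue growth factor, a secreted matricellular protein and a standard YAP/TAZ reporter gene. It was at 213, 227, 262 and 255 CPM in controls 1 to 4 and at 128, 132, 146 and 167 CPM in NaCl libraries 5 to 8. The highest NaCl library lay below the lowest control, although each group spanned a wide range. Group means were 239.6 ± 23.2 CPM in control and 143 ± 17.8 CPM in NaCl libraries (SD, n = 4), and the log2FC was -0.74 (SE 0.10; adjusted p = 8.82e-04), a size above or equal to that of 93.3% of all tested genes. The opposite-strand gene Gm15270 overlaps 23.2% of the exon bases of Ccn2 and had 39 to 107 counts per library, against at least 4584 for Ccn2.

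Ccn1 (ENSMUSG00000028195, chr3:145646976-145649981, minus strand) encodes the related matricellular protein CYR61. Its level was 207, 218, 232 and 227 CPM in the controls and 133, 154, 182 and 179.9 CPM in the NaCl libraries. NaCl libraries 5 and 6 were the lowest of all, and libraries 7 and 8 lay closer to the controls without reaching them. Group means were 221 ± 10.8 CPM in control and 162 ± 23.5 CPM in NaCl libraries (log2FC -0.45, SE 0.10; adjusted p = 0.0107), and the range without single libraries was -0.51 to -0.36.

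Ankrd1 (ENSMUSG00000024803, chr19:36111961-36120099, minus strand) encodes an ankyrin-repeat protein of muscle sarcomeres and nuclei that is induced by YAP. It was at 128, 137, 135 and 123 CPM in the controls and at 85.0, 92.0, 99.7 and 106 CPM in the NaCl libraries, with no overlap. Group means were 131 ± 6.52 CPM in control and 95.7 ± 9.22 CPM in NaCl libraries (log2FC -0.45, SE 0.061; adjusted p = 9.81e-05). Ccn2, Ccn1 and Ankrd1 kept their calls without any 1 of the 8 libraries and in every other fit that was tried. They are also the members with the shortest gene spans, 3.24, 3.01 and 8.14 kb, against 10.1 to 227 kb for the other 7. Ajuba, the next shortest at 10.1 kb, was higher with NaCl. The spans were set beside the changes after the values were seen, and a link between them was not tested.

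The targets that act back on the pathway were not lower with NaCl in this fit. Ajuba (ENSMUSG00000022178, chr14:54567472-54577558, minus strand), a LIM protein that binds and inhibits LATS kinases, was at 224, 245, 273 and 268 CPM in the controls and at 277, 299, 296 and 302 CPM in the NaCl libraries. Every NaCl library was above every control, NaCl 5 narrowly and the other 3 by a wider margin, and the log2FC was 0.22 (SE 0.055; adjusted p = 0.00745). Lats2 (ENSMUSG00000021959, chr14:57689662-57758388, minus strand), the kinase that phosphorylates YAP, was at 107, 105, 114 and 117 CPM in the controls and at 118, 119, 118 and 119.9 CPM in the NaCl libraries. The NaCl libraries sat close together, just above control 4, with a log2FC of 0.11 (SE 0.039; adjusted p = 0.0426). Without single libraries the log2FC ran from 0.079 to 0.13, and the call was lost without control library 1 (adjusted p = 0.113), control library 2 (0.159), NaCl library 5 (0.0622), NaCl library 6 (0.0883), NaCl library 7 (0.0807) or NaCl library 8 (0.0904), with no low-count filter (0.0523), and with a linear drift over the libraries in the fit (-0.0061; adjusted p = 0.965). With that drift Ajuba was not called either (-0.034; adjusted p = 0.764). The annotated same-strand gene Gm49361 covers 42.4% of the exon bases of Lats2, so its counts are uncertain.

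Amotl2 (ENSMUSG00000032531, chr9:102716672-102733418, plus strand) encodes an angiomotin-family protein that holds YAP at junctions and in the cytoplasm. It was at 268, 278, 311 and 314 CPM in the controls and at 276, 298, 309.6 and 318 CPM in the NaCl libraries, so the groups covered the same range. The log2FC was 0.038 (SE 0.057; adjusted p = 0.662), with a value of -0.0053 without control library 1. With a linear drift over the libraries in the fit Amotl2 was called lower (-0.27; edgeR adjusted p = 4.41e-04). Axl (ENSMUSG00000002602, chr7:25757273-25788705, minus strand), a receptor tyrosine kinase for GAS6, was at 415, 393, 381 and 368 CPM in the controls and at 379.6, 372, 379.6 and 366 CPM in the NaCl libraries. The groups overlapped, and the log2FC was -0.056 (SE 0.037; adjusted p = 0.269).

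Levels were compared between genes per kb of annotated exon, a length that covers every annotated transcript and so lowers the value of genes with many long forms such as Tead1 (13.6 kb). In control libraries the order was Ccn1 (109.5 ± 5.36 CPM per kb), Ccn2 (83.7 ± 8.11), Axl (77.3 ± 3.95), Ajuba (69.2 ± 6.10), Amotl2 (46.5 ± 3.74), Ankrd1 (45.2 ± 2.26), Wwtr1 (30.7 ± 0.903), Yap1 (18.3 ± 0.414), Lats2 (15.8 ± 0.806) and Tead1 (13.1 ± 0.458; SD, n = 4). Ccn2 overlapped Axl, Axl overlapped Ajuba and Amotl2 overlapped Ankrd1, and the other neighbours in this order did not overlap. In NaCl libraries Ajuba (80.5 ± 3.12 CPM per kb) and Ccn1 (80.3 ± 11.7) led and overlapped, Axl (74.4 ± 1.31) overlapped Ccn1, and Ccn2 (50.1 ± 6.22) overlapped Amotl2 (47.8 ± 2.91). Ankrd1 (33.2 ± 3.20) overlapped Wwtr1 (32.8 ± 0.413), followed without overlap by Yap1 (19.8 ± 0.374), Lats2 (17.1 ± 0.130) and Tead1 (16.2 ± 0.190). The place of Wwtr1 above Yap1 rests on this length. Yap1 had the higher CPM in both groups and has 9.26 kb of annotated exon but a longest transcript of 5282 bases, against 4.78 kb and 4697 bases for Wwtr1. The order of Ajuba, Ccn1 and Axl, and of Ccn2 and Amotl2, may rest on it too. The longest transcripts are 3397, 2019 and 4265 bases (exon 3.65, 2.02 and 5.03 kb), and 2490 and 4427 bases (2.86 and 6.29 kb). An order by longest transcript was not computed.

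**Figure D2:**
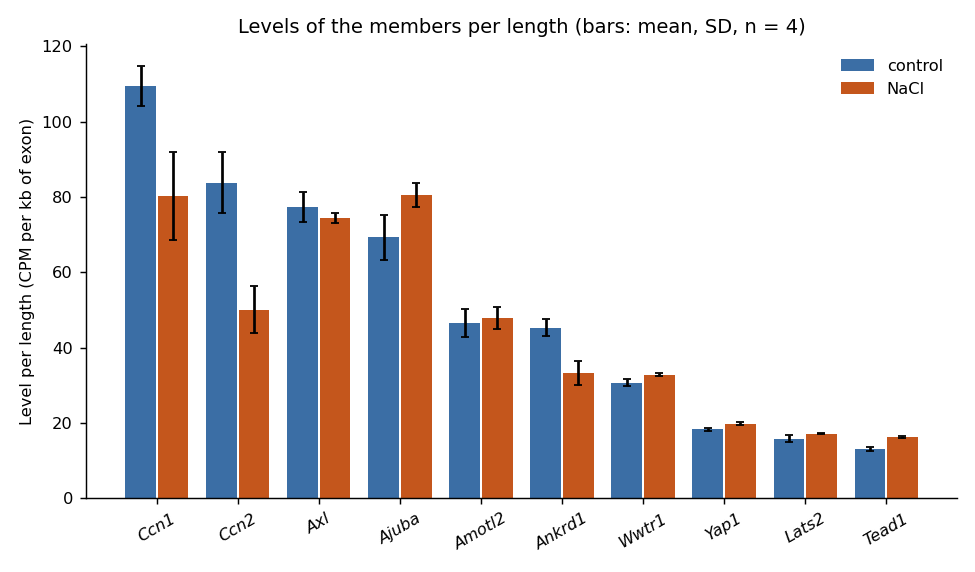
Mean level of each gene per kb of annotated exon (y axis, CPM per kb, bars from 0, error bars 1 SD, n = 4 libraries) in control (blue) and NaCl (orange) libraries, ordered by the control level. Ccn1 leads in controls at 109.5 CPM per kb, and Ajuba and Ccn1 are level at 80.5 and 80.3 in NaCl libraries.

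The levels of several targets also changed along the library number inside each group. The number comes from the labels, which do not say what it marks, and libraries 1 to 4 and 5 to 8 are also the groups. Slopes are in log2 units per step of the number, from an edgeR fit over all genes with the group as a term and the number centred within its group. Of the 10 genes 4 rose and 1 fell along the number, where 13.2% of all tested genes were called (6.95% rising and 6.22% falling). Without control library 1, control library 4 or NaCl library 8 the number of genes called along the number was 949, 1088 or 1042 in place of 1847.

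Ccn2 had the steepest slope of the 10, 0.11 per library (SE 0.015; adjusted p = 1.31e-06). Ccn1 rose by 0.10 (SE 0.025; adjusted p = 0.031), Amotl2 by 0.077 (SE 0.012; adjusted p = 4.20e-05) and Ajuba by 0.064 (SE 0.014; adjusted p = 0.00193). Axl fell by 0.035 on the log2 scale (SE 0.012; adjusted p = 0.0482). For Amotl2 this slope per library was larger than its group difference of 0.038. The number of members called was 3 in place of 5 without control library 1, 2 or 3 or NaCl library 6 or 8. The call of Ccn1 was lost without control library 2 (adjusted p = 0.0731), control library 3 (0.0722), NaCl library 6 (0.0734) or NaCl library 8 (0.112), and that of Ajuba without control library 1 (0.072). The call of Axl was lost without control library 1 (0.413), control library 2 (0.0525), control library 3 (0.0804), control library 4 (0.304), NaCl library 6 (0.0535) or NaCl library 8 (0.0947), and with DESeq2 (0.0564), median-of-ratios factors (0.0635) or no low-count filter (0.0587).

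The factor genes did not pass the test along the number. Slopes were 3.06e-04 for Yap1 (SE 0.013; adjusted p = 0.993), -0.0025 for Wwtr1 (SE 0.014; adjusted p = 0.944) and 0.0078 for Tead1 (SE 0.013; adjusted p = 0.783). Lats2 (0.028, SE 0.015; adjusted p = 0.222) and Ankrd1 (0.043, SE 0.024; adjusted p = 0.304) did not pass the test over both groups, although Ankrd1 passed without control library 4 (0.087; adjusted p = 0.00185).

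Slopes were then estimated for each group in a single fit. In the controls Ccn2 (0.099), Amotl2 (0.086) and Ajuba (0.092) rose and Axl fell by 0.056 on the log2 scale, 4 of 10 genes where 9.36% of all tested genes were called (4.93% rising and 4.42% falling), and the adjusted p-values were 7.42e-04, 5.54e-04, 6.02e-04 and 0.0151. In the NaCl libraries Ccn1 (0.16), Ccn2 (0.13), Ankrd1 (0.11) and Amotl2 (0.067) rose, 4 of 10 genes where 4.07% were called (3.02% rising and 1.06% falling), with adjusted p-values of 7.24e-06, 2.78e-05, 0.00124 and 0.0126. The calls depended on the end libraries more than some of the slopes did. Without control library 1 the number of members called in the controls was 0 and without control library 4 it was 3, and without NaCl library 5 or NaCl library 8 it was 1 in the NaCl group, Ccn2 and Ccn1 in turn. Without control library 1 the control slopes were 0.085 for Ccn2, 0.089 for Amotl2, 0.065 for Ajuba and -0.046 for Axl. The NaCl slope of Ankrd1 was 0.10 without NaCl library 5 and 0.11 without NaCl library 8, while that of Ccn1 was 0.11 and 0.23. Over all genes the calls fell from 1312 to 112 and 414 without control libraries 1 and 4, and from 571 to 163 and 240 without NaCl libraries 5 and 8.

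The slope of Ankrd1 was -0.019 (SE 0.021) in the controls and 0.11 (SE 0.022) in the NaCl group. The difference of 0.13 (SE 0.030) had an adjusted p of 0.0867 in edgeR and of 0.0447 in DESeq2, which gave the same size of 0.13 (SE 0.035). Without control library 4 the control slope was 0.039 and the difference 0.069 (edgeR adjusted p = 0.823), and without the other libraries in turn the difference ran from 0.12 to 0.19, with no adjusted p under 0.05. For Ccn1 the difference was 0.11 (SE 0.029; edgeR adjusted p = 0.199), and single libraries moved it in both directions. It was 0.18 without NaCl library 8 (adjusted p = 0.00209), 0.066 without NaCl library 5 (0.956) and 0.075 without control library 4 (0.789). In edgeR's test of the slope difference 0 of the 10 genes were called, where 0.0927% of all tested genes were called (0.057% with the NaCl slope higher and 0.0357% lower). An unadjusted p-value under 0.05 was found in 3 of the 10 (Ankrd1, Ccn1 and Ajuba) and in 7.76% of all tested genes. DESeq2 called 1 of the 10, Ankrd1, and 29 genes in all in place of 13.

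**Figure D3:**
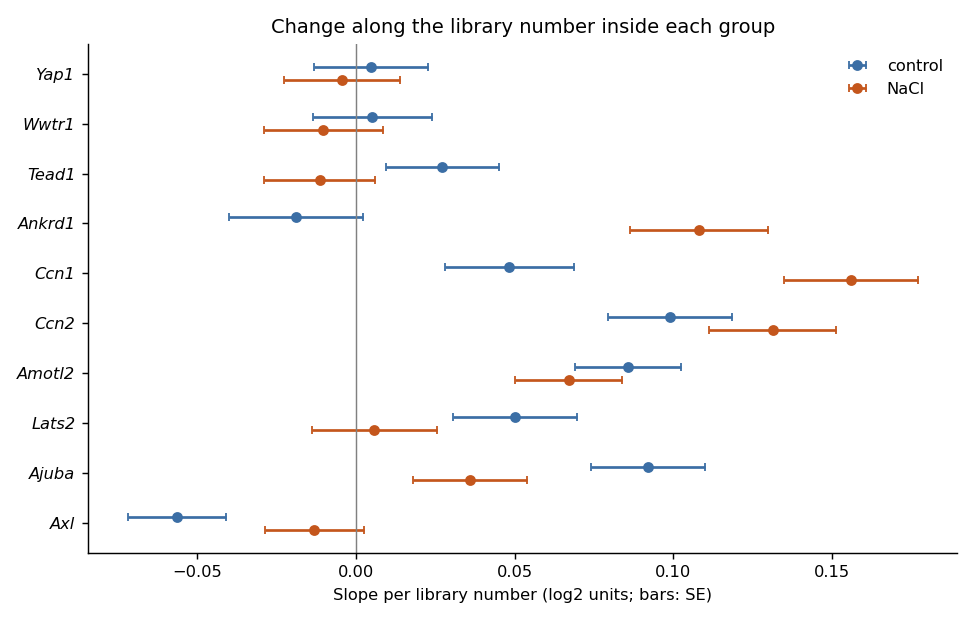
Slope along the library number (x axis, log2 units per library, error bars 1 SE) of each gene (y axis) in control (blue) and NaCl (orange) libraries, from a single edgeR fit. Ccn1, Ccn2 and Ankrd1 lie at 0.11 to 0.16 in the NaCl group, and Yap1, Wwtr1 and Tead1 lie between -0.011 and 0.027 in both.

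Other measures moved along the same number. The share of mitochondrially encoded counts was 1.43, 1.46, 1.38 and 1.32% in controls 1 to 4 and 1.65, 1.48, 1.47 and 1.39% in NaCl libraries 5 to 8. Of 12 collecting duct markers tested 7 rose along the number and 0 fell (6.95% and 6.22% of all tested genes), the keratin genes Krt7 (slope 0.10), Krt8 (0.099) and Krt18 (0.11) among them. Of the markers of other cell types and the tonicity genes, the leukocyte gene Csf1r (slope 0.23; adjusted p = 0.00186) and the proximal tubule gene Lrp2 (0.090; 5.82e-05) rose, and Pdgfrb (-0.065; 0.0404) and Akr1b3 (-0.052; 0.0191) fell. Their part in the slopes of the YAP-TEAD genes was not tested. The sum of the collecting duct markers was 1667 to 2126 CPM in the controls and 2652 to 2965 CPM in the NaCl group. Most of that gap came from the cadherin gene Cdh16, with means of 639.5 and 1380 CPM. Of the 12 markers tested 4 were called higher with NaCl, 2 lower (Gata3 and Tfcp2l1) and 6 not, with a median log2FC of 0.0070. The 4 were Cdh16, Pax2, Pax8 and Cdh1, the last at 2 to 30 counts per library. Among all tested genes 34.1% were called (16.9% higher and 17.2% lower). With a linear drift over the libraries in the fit 3 markers were higher and 6 lower, where 24.1% of all genes were called.

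The NaCl effect was recomputed with the library number in the fit. With the number centred within groups the same 8 genes were called in the same directions, where 43% of all genes were called (21% higher and 22% lower). Centring leaves the group difference nearly unchanged by design, so these directions were set in advance and this fit is no check on them. With a straight drift over libraries 1 to 8, which shares its direction with the group difference, 5 of 10 genes were called, 1 higher and 4 lower, where 24.1% of all genes were called (11.5% higher and 12.6% lower). The groups share no library number, so this fit carries the slope inside the groups across the step between them. Its shifts from the centred fit restate the slopes given above and are not a separate check on the NaCl effect. Tead1 remained higher (0.28, SE 0.060; adjusted p = 5.22e-04). Ccn2 (-1.20, SE 0.067; adjusted p = 1.42e-15), Ccn1 (-0.86, SE 0.12; adjusted p = 5.71e-04) and Ankrd1 (-0.62, SE 0.11; adjusted p = 0.0014) remained lower, further from 0 than without the drift. Amotl2 became lower and passed the test (-0.27, SE 0.056; adjusted p = 4.41e-04). Yap1 (0.12) and Wwtr1 (0.11) had nearly the same values as without it but, like Ajuba and Lats2, were not called. Axl was at 0.085 (adjusted p = 0.292).

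**Figure D4:**
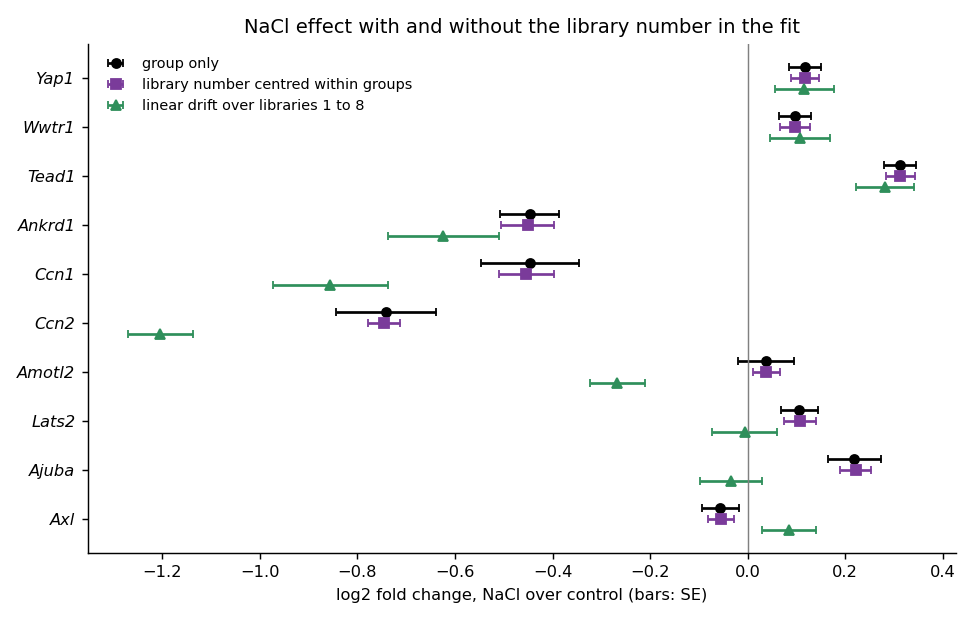
log2 fold change of NaCl over control (x axis, error bars 1 SE) of each gene (y axis) from edgeR with the group alone (circles), with the library number centred within groups (squares) and with a linear drift over libraries 1 to 8 (triangles). Ankrd1, Ccn1, Ccn2 and Tead1 stay on the same side of 0 in the 3 fits, and Amotl2 moves from 0.038 to -0.27.

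Other genes with a YAP/TAZ target role moved in both directions. A list of 16 further targets was written from general knowledge of published target signatures and was not checked against a source. Of these 15 were measured and tested, 6 were higher, 5 were lower and 4 were not called (73.3% called, beside 34.1% of all genes), with a median log2 fold change of 0.097 beside 0.0029 for all genes. Foxf2, a forkhead factor gene, rose, with means of 2.85 ± 0.693 CPM in control and 11.3 ± 1.35 in NaCl libraries (log2FC 1.98, SE 0.15; adjusted p = 6.44e-08), and the RNA-binding protein gene Rbms3 rose by 0.45 (SE 0.062; adjusted p = 3.97e-05). Ccdc80, for a matrix protein, fell, with means of 93.2 ± 2.07 CPM in control and 50.2 ± 5.19 in NaCl libraries (log2FC -0.89, SE 0.058; adjusted p = 1.62e-08). Tgfb2, for a TGF-beta ligand, fell, with means of 15.4 ± 0.865 CPM in control and 8.52 ± 0.832 in NaCl libraries (log2FC -0.86, SE 0.087; adjusted p = 1.09e-06). With the drift in the fit 3 of these 15 genes were higher and 8 lower (24.1% of all genes were called), and Rbms3 was no longer called (0.14; adjusted p = 0.282).

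Along the library number 8 of these 15 target genes rose and 0 fell, where 6.95% of all tested genes rose and 6.22% fell. Their median slope was 0.062, beside -0.0014 for all genes. F3, the gene for tissue factor, singled out after its values were seen, had a slope of 0.21 (adjusted p = 4.88e-10). It was at 96.3, 106, 139 and 151 CPM in controls 1 to 4 and at 111, 116, 141 and 158 CPM in NaCl libraries 5 to 8, and its group difference was not called (adjusted p = 0.742). With the number centred within groups that difference passed (0.10; adjusted p = 0.0222), and with the drift it was -0.73 (adjusted p = 7.27e-09).

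**Figure D5:**
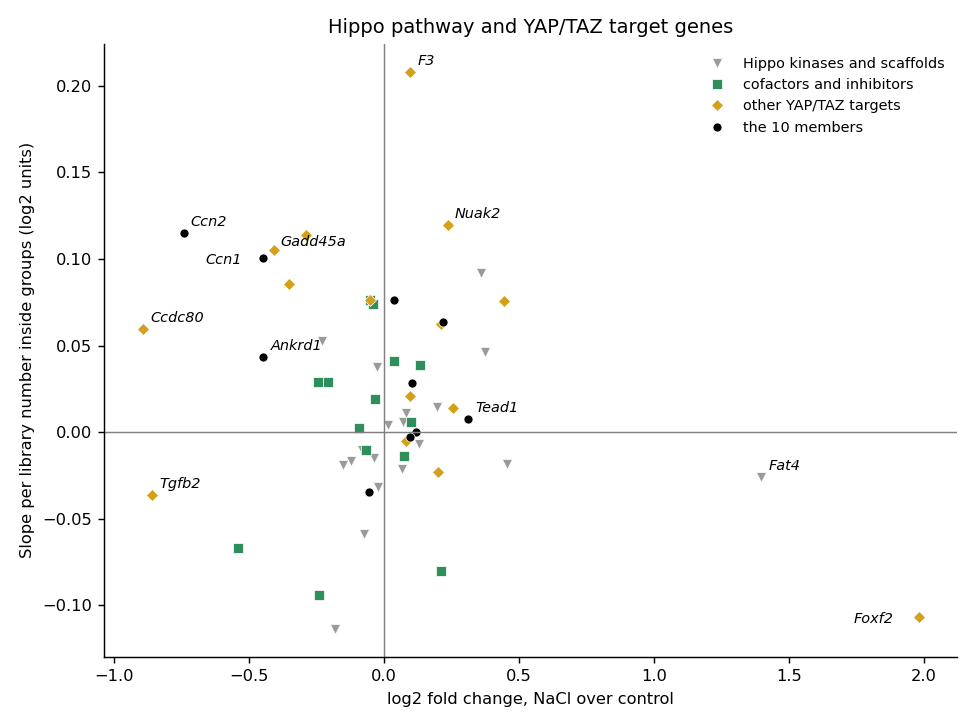
log2 fold change of NaCl over control (x axis) against the slope along the library number inside groups (y axis, log2 units per library) for the tested members (black circles), other YAP/TAZ targets (yellow diamonds), cofactors and inhibitors (green squares) and Hippo kinases and scaffolds (grey triangles). Other targets lie on both sides of 0 in the NaCl effect, from -0.89 (Ccdc80) to 1.98 (Foxf2), and 8 of the 15 have a slope called above 0.

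Of 20 kinases and scaffolds listed upstream of YAP 19 were tested, 6 were higher, 3 lower and 10 not called (47.4% called, beside 34.1% of all genes), with a median log2 fold change of 0.016. With the drift in the fit 3 were higher and 2 lower, a share near the 24.1% of all genes called there. The atypical cadherin gene Fat4 rose, with means of 1.97 ± 0.129 CPM in control and 5.20 ± 0.477 in NaCl libraries (log2FC 1.40, SE 0.14; adjusted p = 7.63e-07), and the kinase gene Map4k5 rose by 0.46 (SE 0.037; adjusted p = 6.81e-08). Rassf1, for a scaffold of the MST kinases, fell by 0.23 on the log2 scale (SE 0.060; adjusted p = 0.00821), and the kinase gene Map4k4 fell by 0.15 (SE 0.035; adjusted p = 0.00263), a call lost with the drift in the fit (-0.076; adjusted p = 0.375). Lats1, the paralogue of Lats2, was at 87.4 ± 3.43 CPM in control and 88.4 ± 2.31 CPM in NaCl libraries (log2FC 0.016, SE 0.039; adjusted p = 0.791).

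Paralogues of the members were described beside them, and differences between paralogues were not tested. The TEAD genes Tead2 (-0.067, SE 0.039; adjusted p = 0.21), Tead3 (0.10, SE 0.050; adjusted p = 0.136) and Tead4 (-0.24, SE 0.11; adjusted p = 0.0989) were not called, though Tead4 passed with the library number centred within groups (-0.24; adjusted p = 0.0484) and turned to 0.14 with the drift (adjusted p = 0.691). The angiomotin genes Amotl1 and Amot fell, from 166 ± 8.08 to 140.4 ± 6.64 CPM (log2FC -0.24, SE 0.042; adjusted p = 2.79e-04) and from 104 ± 6.39 to 90.0 ± 2.82 CPM (-0.21, SE 0.044; adjusted p = 0.00169). With the drift Amotl1 (-0.36; adjusted p = 1.65e-04) and Amot (-0.32; 0.0015) were called lower, as was Amotl2, and neither Lats1 nor Lats2 was called.

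Among the 15 cofactors and inhibitors listed, 14 were tested, with 2 higher, 4 lower and 8 not called (42.9% called, near the 34.1% of all genes) and a median of -0.045. With the drift 1 was higher and 4 lower, where 24.1% of all genes were called. The other lower genes included Sfn, for stratifin, at 3.47 ± 0.286 and 2.39 ± 0.190 CPM (-0.54, SE 0.15; adjusted p = 0.00855), a call lost with the drift (-0.27; adjusted p = 0.605). The TEAD-binding cofactor genes Vgll3 (0.21, SE 0.073; adjusted p = 0.0335) and Vgll4 (0.13, SE 0.049; adjusted p = 0.0451) were higher. The call of Vgll3 was lost without control library 2, 3 or 4 or NaCl library 5, 6 or 7 (adjusted p from 0.0505 to 0.114). That of Vgll4 was lost without control library 1, 2 or 4 or NaCl library 5, 6, 7 or 8 (0.0537 to 0.143), with DESeq2 (0.0513) and with no low-count filter (0.0507). With the drift Vgll4 turned to -0.021 (adjusted p = 0.897) and Vgll3 was at 0.54 (3.74e-04).

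Cytoskeletal genes driven by MRTF and the serum response factor, which share inputs and some targets with YAP, were described beside them. Of 21 genes 6 were higher, 5 lower and 10 not called (52.4% called, beside 34.1% of all genes), with a median of -0.028. With the drift 4 were higher and 5 lower, where 24.1% of all genes were called. Fhl2, for a LIM-domain cofactor, rose, with means of 90.7 ± 3.72 CPM in control and 168 ± 6.53 in NaCl libraries (log2FC 0.89, SE 0.040; adjusted p = 6.50e-11). The myosin light chain gene Myl9 rose too, with means of 8.87 ± 0.652 and 14.2 ± 0.593 CPM (log2FC 0.68, SE 0.082; adjusted p = 7.13e-06). Tagln2, for transgelin-2, fell, with means of 356 ± 8.29 CPM in control and 248 ± 9.79 in NaCl libraries (log2FC -0.52, SE 0.035; adjusted p = 8.10e-09). The tropomyosin gene Tpm2 fell by 0.28 on the log2 scale (SE 0.051; adjusted p = 3.81e-04), a call lost with the drift (-0.12; adjusted p = 0.349).

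The genes whose log2 CPM over the 8 libraries was most like that of the 3 lower targets were looked for among 10110 genes (mean log2 CPM 3 or more), by Pearson's r as a measure of likeness that contains the group difference and the change along the library number together. Nearest to Ankrd1 were the mitochondrial ribosomal gene Mrpl30 (r = 0.994), the heme synthesis gene Cpox (0.990) and Rpl27a (0.988). Nearest to Ccn1 were the metallothionein gene Mt1 (0.996), the Rab regulator gene Gdi2 (0.994) and the glypican gene Gpc6 (0.993). Nearest to Ccn2 were the proteasome gene Psmd8 (0.998), Pamr1 (0.997) and Pea15a (0.997). Their log2FC with NaCl ran from -1.15 (Pamr1) to -0.093 (Gdi2), a direction that the choice by likeness fixes, and none of the 9 was on the target lists.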

How the data were processed

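The authors deposited raw counts per Ensembl gene for 8 libraries, which were the input to every test, and a second table of normalized values that was not used. Trim Galore 0.6.7, STAR, DESeq2 1.34.0 and the build mm10 are named in the submitters' processing notes, and the counting program and strandedness are not given in the sources used here. Members and gene lists were chosen with earlier results of these data known. The fits used edgeR 4.0.16 under R 4.3.3. The filterByExpr rule for the 2 groups (minimum count 10) kept 14024 genes, which were scaled by TMM and fitted with robust quasi-likelihood. Adjusted p-values are Benjamini-Hochberg over all tested genes. CPM values use TMM-scaled totals, and log2 CPM a prior count of 2. Further terms were the library number centred within groups, its slope in each group, or a drift over libraries 1 to 8. Alternatives were other scalings and filters, DESeq2 1.42.0 and leaving out each library. Leaving out libraries from the slopes of each group was chosen after seeing the data. Every member was named. From the 4 lists of Hippo kinases and scaffolds, cofactors and inhibitors, other YAP/TAZ targets and MRTF-SRF targets, the 2 highest and 2 lowest called genes were named, and the paralogues Lats1, Tead2, Tead3, Tead4, Amot and Amotl1, with the 3 genes most like each of Ankrd1, Ccn1 and Ccn2. The marker and tonicity genes and F3 are outside this rule and were chosen after their values were seen. Gene positions and exon lengths are from GENCODE M21 (GRCm38). Overlap with other genes was taken from the same annotation. The test was checked on simulated counts: for the group comparison, 53.7% of genes changed by 0.3 (log2) were recovered among 13900 genes and 5.03% of 159 calls were false. For the library number, 2.99% of genes with a slope of 0.05 and 37.9% of those with a slope of 0.1 were recovered among 13900 genes. Of its 84 calls 10.7% were false, a share above the threshold of 0.05, so slopes near that threshold are uncertain and small slopes are mostly missed.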

Additional observations from a re-analysis of the deposited data

Results flagged for a closer look

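Single libraries far from the rest were sought in 22 sets of 4 values, made of the CPM of the 10 genes and the total counts, each by group. Chance gives about 1 in 20, or 1.1 here, and 2 were found, both in the total counts. Control replicate 1 had 47.57 M counts against 41.77 to 42.73 M in the other controls. NaCl replicate 5 had 35.29 M counts against 41.37 to 42.39 M in the other NaCl libraries. NaCl replicate 5 also had the lowest CPM of Ankrd1, Ccn1 and Ccn2 of the 8 libraries, and without it their log2 fold changes were -0.39, -0.36 and -0.69.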

How the results depend on the processing

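No paired analysis was possible because the groups share no library number. Over 15 alternatives the members' NaCl effects kept direction and side of the threshold in 130 of 150 refits, lost the call in 15 and reversed in 5. The reversals were Ajuba (-0.034), Amotl2 (-0.27), Axl (0.085) and Lats2 (-0.0061) with a linear drift over libraries 1 to 8, and, without single libraries, Amotl2 (-0.0053 to 0.076, below 0 without control replicate 1). With that drift 5 members were called, 1 of them higher, in place of 8 and 5. The shifts with the drift restate the slopes inside the groups and are not a separate check. Leaving out single libraries gave 6 to 8 members called and 3 to 5 called higher. For the genes named from the other lists and the paralogues 290 of 315 refits were the same. F3 (0.098, and -0.73 with the drift), the marker and tonicity genes and the genes most like the 3 lower targets were not among them. Lats1 (-8.27e-04), Tead4 (0.14) and Vgll4 (-0.021) reversed with the drift, and Lats1 (-0.0025 to 0.037 without single libraries) without control replicate 2 or 3. Along the library number 105 of 130 refits of members were the same, 14 lost the call, 1 gained it and 10 reversed. The reversals were Tead1 (-0.0024) and Yap1 (-0.0098) with library totals alone, and, without single libraries, Tead1 (-0.0032 to 0.018), Wwtr1 (-0.0067 to 0.0031) and Yap1 (-0.011 to 0.0091), all near 0. Leaving out single libraries gave 3 to 5 members called along the number, 0 to 1 of them falling, and 949 to 1870 genes. The number of members falling was 0 with DESeq2, median-of-ratios factors or no low-count filter. Within the controls the ranges were 0 to 4 members and 112 to 1406 genes, and within the NaCl group 1 to 4 members and 163 to 568 genes. DESeq2 called 29 genes in the slope difference in place of 13. Beyond the fits named, the cause of these changes was not tested. Every member had at least 3045 counts in every library.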
